A study of Homo sapiens with 43 samples.

Results

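The response described here is that of GM12878 cells to interferon gamma (IFNg) for 6 h, measured as RNA in a panel of stimuli given without pretreatment. GM12878 is an established lymphoblastoid line, that is, B cells transformed by Epstein-Barr virus. Polyadenylated RNA of the IFNg group (100 ng/mL, 2 libraries) was compared with that of the vehicle libraries, 2 with DMSO and 2 with PBS, so that 6 of the 43 libraries of the series carry the main result. All genes were asked, and 15775 of 58735 passed the filter on low counts. A second experiment in the same line gave an IFNg contrast in other libraries: cells pretreated with DMSO received IFNg at the same dose (DMSO+IFNg) or vehicle (DMSO+Veh) for 1 h or 6 h, with 2 libraries per group. The groups given TNF, LPS or IL2 for 6 h in the panel, with 2 libraries each, served as other stimuli. The inhibitor BRM014, which the series also uses, was absent from all of these groups. Groups with BRM014 or dexamethasone did enter the fit of the pretreatment experiment, which estimated the spread over all 24 libraries. The panel fit likewise held the dexamethasone and doxorubicin groups beside those named here. Separate cultures are not named for the replicates in the labels. The p-values thus measure the spread between libraries, part of which may be technical.

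IFNg is a cytokine of T and natural killer cells. It binds a receptor of the chains IFNGR1 and IFNGR2, whose kinases JAK1 and JAK2 activate transcription factors already present in the cell. These bind the gamma-activated sequence (GAS) in promoters and enhancers, and among the first genes they activate is IRF1, a transcription factor that binds interferon-stimulated response elements (ISRE). In B cells IFNg is known for raising antigen presentation and for inducing TBX21 (T-bet).

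Libraries held 16.6 and 16.7 M counts with IFNg and 14.2 to 22.9 M with vehicle, and mitochondrial genes took 5.71 and 5.802% of the counts with IFNg and 5.54 to 6.08% with vehicle. The PBS pair stood further apart than the other pairs of the panel comparison, with a chi-square per degree of freedom of 6.68, against 2.60 for the IFNg pair and 2.68 for the DMSO pair. All 7 B cell markers were present, with a summed level of 11950 and 12610 CPM (counts scaled to a common library size) with IFNg and 11980 to 13440 CPM with vehicle, although CD22, CD79B and MS4A1 were called lower and PAX5 higher. A gene is called here when its adjusted p in edgeR was under 0.05, as for 4.75% of the 15775 tested genes lower and 7.11% higher. Of the 7 monocyte and macrophage markers, FCN1, S100A8 and CD163 had 0 counts in all 6 libraries, and the 7 together reached 0.540 and 0.963 CPM with IFNg and 0.480 to 0.683 CPM with vehicle. The 6 T cell markers summed to 62.8 and 65.8 CPM with IFNg and 67.6 to 77.5 CPM with vehicle, nearly all of it from TRAC. Of 3 tested T cell markers and 3 tested NK cell markers, 0 were called, also at an unadjusted p under 0.05 or by DESeq2. The 5 NK cell markers summed to 5.66 and 6.41 CPM with IFNg and 5.49 to 7.31 CPM with vehicle. These summed levels are plain CPM, while the CPM values of single genes below are also scaled by TMM factors, apart from those of the T cell markers.

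The promoter sequences are shown first because the gamma-activated motif and the motif bound by interferon regulatory factors can be read in them. RefSeq windows (GRCh38.p14) were found for 33 of 43 genes asked: CXCL9, GBP4 and IRF1, and the 20 largest rises and 20 largest falls described below. In 5 of the 33, all of them genes that rose, the 250 bases upstream of the start held TTCNNNGAA (GAS-type) or TTTC followed by any 2 bases and TTTC (ISRE-type), on either strand. Over all 11183 tested genes with a window, 8.01% held either motif there. The 5 include the chosen markers CXCL9 and IRF1, and the 33 are too few to set rises against falls. Each of the 5 windows is printed 5′ to 3′ on the strand of its gene, with the matches in capitals. All 5 lie on the minus strand: CXCL9 at chr4:76007510-76007759, IRF1 at chr5:132490774-132491023, TNFSF10 at chr3:172523431-172523680, SLFN12L at chr17:35537679-35537928 and AIM2 at chr1:159076767-159077016.
CXCL9: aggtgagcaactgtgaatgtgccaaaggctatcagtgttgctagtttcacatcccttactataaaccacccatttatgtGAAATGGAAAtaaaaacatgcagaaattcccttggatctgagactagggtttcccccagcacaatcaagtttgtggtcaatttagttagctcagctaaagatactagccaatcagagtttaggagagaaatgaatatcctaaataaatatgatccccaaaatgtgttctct
IRF1: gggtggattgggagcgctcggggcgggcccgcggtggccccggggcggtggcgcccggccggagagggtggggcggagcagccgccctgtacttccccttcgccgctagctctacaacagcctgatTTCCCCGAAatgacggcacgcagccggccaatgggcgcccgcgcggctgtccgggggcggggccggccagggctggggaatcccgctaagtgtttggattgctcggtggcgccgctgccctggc
TNFSF10: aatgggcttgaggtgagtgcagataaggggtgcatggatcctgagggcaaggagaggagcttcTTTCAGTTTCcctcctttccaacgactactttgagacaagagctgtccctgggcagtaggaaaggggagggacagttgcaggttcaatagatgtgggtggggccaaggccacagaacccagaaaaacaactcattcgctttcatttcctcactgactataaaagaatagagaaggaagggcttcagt
SLFN12L: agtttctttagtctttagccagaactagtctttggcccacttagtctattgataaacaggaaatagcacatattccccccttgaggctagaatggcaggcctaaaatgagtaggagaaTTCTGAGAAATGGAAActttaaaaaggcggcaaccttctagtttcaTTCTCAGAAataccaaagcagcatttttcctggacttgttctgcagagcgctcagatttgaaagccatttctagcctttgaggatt
AIM2: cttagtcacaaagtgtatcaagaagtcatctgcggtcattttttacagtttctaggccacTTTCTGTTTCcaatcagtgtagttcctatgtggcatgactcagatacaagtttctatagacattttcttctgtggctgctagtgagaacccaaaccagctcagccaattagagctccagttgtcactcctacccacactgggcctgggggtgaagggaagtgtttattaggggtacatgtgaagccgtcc
CXCL9, TNFSF10 and AIM2 held an ISRE-type match beginning 171, 187 and 190 bases before the start, and IRF1 a GAS-type match 124 bases before it. The longer run of capitals in SLFN12L is a GAS-type match that overlaps an ISRE-type match, and a second GAS-type match follows. HAPLN3, the first of the 20 rises described below, held TTCCCCGAA from base 3 after its start, the same letters as the match of IRF1. In GBP4 an ISRE-type match lay across the start. A match is a description of letters and not of a bound site.

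IFNg was followed by higher levels of 1122 genes (7.11% of 15775 tested) and lower levels of 750 (4.75%) by edgeR's quasi-likelihood test with Benjamini-Hochberg adjustment at an adjusted p under 0.05. In most of these genes the change was small. Of the rises, 407 were under 1.2-fold, 437 between 1.2 and 1.5-fold and 148 between 1.5 and 2-fold, and 130 (0.824% of tested genes) exceeded 2-fold. Among the falls, 323 were under 1.2-fold, 339 between 1.2 and 1.5-fold and 66 between 1.5 and 2-fold, and 22 (0.139%) exceeded 2-fold. None of these 22 had a vehicle mean of 5 CPM or more: their median was 1.40 CPM and the highest 3.63 CPM. The large falls were all in genes at low levels, and 82 of the 130 large rises had an IFNg mean of at least 5 CPM. The rises over 2-fold together took 1.66 and 1.73% of all counts with IFNg and 0.521 to 0.568% with vehicle. Both IFNg libraries lay beyond all 4 vehicle libraries in 1100 of the genes called higher and 728 of those called lower. Such a separation, upward in 14.2% and downward in 14.3% of all tested genes, was more common than a call. The median fold change of all tested genes was -0.008 on the log2 scale. Without IFNg replicate 1 the number of falls was 423, and without IFNg replicate 2 the rises numbered 718 and the falls 342. As in any bulk RNA, a change in the number of cells of a kind and in RNA per cell cannot be told apart.

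**Figure D1:**
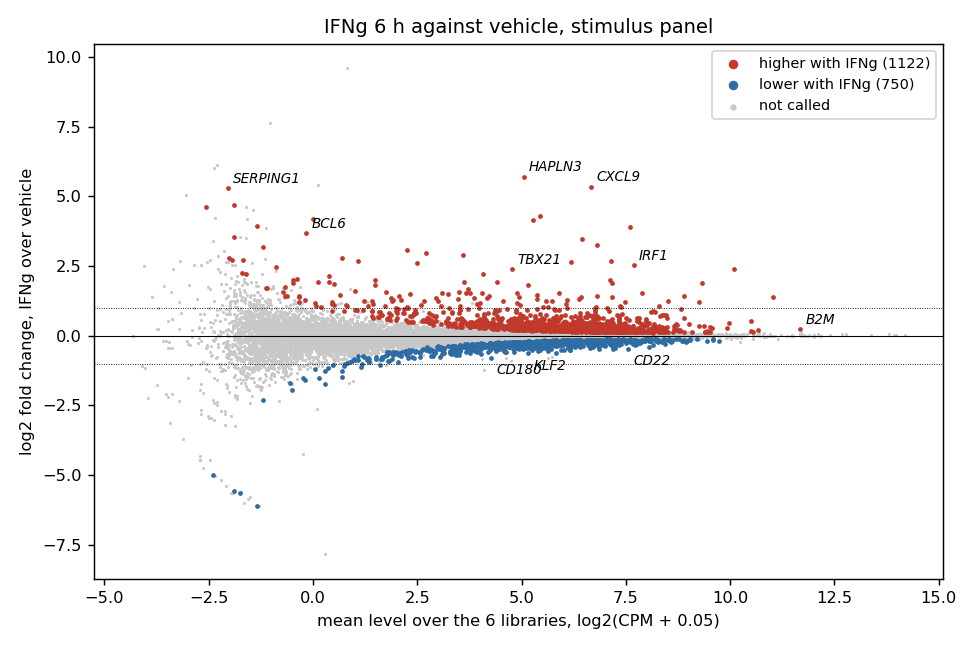
Log2 fold change of IFNg over vehicle at 6 h (vertical axis) against the mean level over the 6 libraries (horizontal axis, log2 of CPM plus 0.05) for 15775 genes. Red points are the 1122 genes called higher with IFNg, blue points the 750 called lower and grey points those not called, and the dotted lines mark 2-fold. Large rises occur at low and high levels, while the 22 falls over 2-fold lie at the low end.

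All 3 marker genes of the response were higher. CXCL9, a chemokine that draws T cells through CXCR3, stood at 290.2 and 289 CPM with IFNg, against 8.35 and 6.42 CPM with DMSO and 7.69 and 6.14 CPM with PBS. GBP4, a guanylate-binding protein of cell-autonomous defence, stood at 503 and 520.1 CPM with IFNg, against 36.0 and 35.7 CPM with DMSO and 29.8 and 34.3 CPM with PBS, and reads of this family may be shared between near-identical members. IRF1 stood at 477 and 442 CPM with IFNg, against 76.5 and 80.9 CPM with DMSO and 77.9 and 82.7 CPM with PBS. For all 3 genes each IFNg library was several-fold above each vehicle library. The fitted log2 fold changes were 5.35 ± 0.07 for CXCL9, 3.91 ± 0.045 for GBP4 and 2.53 ± 0.043 for IRF1 (adjusted p = 4.12e-34, 1.29e-35 and 7.29e-31, edgeR). Of 48 tested IFNg targets 46 were called higher, and of 39 type I interferon-stimulated genes 37, with medians of 1.04 and 0.75 on the log2 scale. MHC class I genes were called higher in 14 of 19 cases and MHC class II genes in 4 of 18, beside 7.11% of all genes. The 4 of class II were CTSS, CIITA, IFI30 and RFX5, none of them an HLA gene, and the class II median was 0.031. HLA-DPA1 (0.085 ± 0.034) and HLA-DMB (0.041 ± 0.035) were not called. CIITA was not called in the pretreatment experiment (0.044 ± 0.065) and differed between DMSO and PBS (-0.21 ± 0.044). The classic lists named in this paragraph hold 91 of the genes called higher. The other 1031, and 90 of the 130 rises over 2-fold, lie outside them.

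The 20 largest rises outside the classic lists, among genes at 5 CPM or more with separate groups, were all also called higher in the pretreatment experiment at 6 h, where 3.47% of 15183 tested genes were. They were also all called higher against the other panel stimuli, where 6.86% of 15775 were. That contrast holds the same IFNg libraries by which the genes were chosen, so it is no separate evidence for them. Separate groups were part of the choice, so the lack of overlap given below for each of the 20 follows from the rule. The 20 rises include genes of secreted factors, signalling proteins, cell death, RNA decay and muscle proteins. Each of them kept its call when any 1 of the 6 libraries was left out.

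HAPLN3 (ENSG00000140511, chromosome 15, 88877294 to 88895597 on hg38), which encodes a link protein joining hyaluronan to proteoglycans, stood at 93.8 and 97.3 CPM with IFNg, against 1.54 and 2.39 CPM with DMSO and 1.83 and 1.65 CPM with PBS. No vehicle library reached 3 CPM, and both IFNg libraries were above 90 CPM. The rise was 5.70 ± 0.12 on the log2 scale (adjusted p = 1.31e-24, edgeR). Its level per length was 65.2 ± 2.65 TPM (abundance per transcript length) with IFNg (SD, n = 2) and 1.32 ± 0.401 TPM with vehicle (SD, n = 4), below that of IRF1 with IFNg at 314 ± 13.5 TPM and of CXCL9 at 136 ± 1.42 TPM. In the pretreatment experiment HAPLN3 stood at 56.3 and 90.7 CPM with IFNg and 1.80 and 1.75 CPM with vehicle at 6 h (5.38 ± 0.28).

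Genes of secreted factors formed a first group. HGF, the growth factor that acts on the receptor MET, stood at 9.86 and 13.2 CPM with IFNg, against 1.23 and 2.09 CPM with DMSO and 0.776 and 1.35 CPM with PBS (log2 fold change 3.09 ± 0.21, adjusted p = 2.40e-13). TNFSF10, the death ligand TRAIL, stood at 30.6 and 39.9 CPM with IFNg, against 6.49 and 7.61 CPM with DMSO and 6.98 and 9.31 CPM with PBS (2.20 ± 0.11, adjusted p = 1.14e-16). ENPP2, which encodes autotaxin, a secreted enzyme that makes lysophosphatidic acid, stood at 6.39 and 5.53 CPM with IFNg and 1.48 to 2.63 CPM in the vehicle libraries (1.57 ± 0.22). In all 3 the lower IFNg library was at least 2 times the highest vehicle library. C4B, a gene of complement component C4, stood at 25.9 and 31.1 CPM with IFNg, against 3.36 and 4.08 CPM with DMSO and 4.09 and 3.79 CPM with PBS (2.90 ± 0.13). Its near-identical neighbour C4A stood at 9.05 and 11.3 CPM with IFNg and 3.38 to 5.44 CPM in the vehicle libraries (1.23 ± 0.17). The groups did not overlap for either gene, but reads may be split between them. In the pretreatment experiment the order of their fold changes was the other way, 1.56 ± 0.29 for C4B and 1.74 ± 0.31 for C4A, so that each copy's own size of change is uncertain.

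The rises also included genes better known from T cells and natural killer cells. TBX21, the transcription factor T-bet, stood at 58.4 and 59.2 CPM with IFNg, against 10.4 and 10.8 CPM with DMSO and 11.7 and 11.9 CPM with PBS (2.40 ± 0.082, adjusted p = 8.31e-22). Both IFNg libraries of TBX21 were above all vehicle libraries. Of the T cell markers, CD3D and CD3G had at most 1 library above 0 counts. CD2 was at 0.361 and 0.240 CPM with IFNg, against 0.046 CPM in 1 vehicle library and 0 in the other 3, and its counts were too few to be tested. The others were not called: CD3E was at 2.29 and 1.86 CPM with IFNg and 1.96 to 3.20 CPM with vehicle, CD5 at 0.241 and 0.180 CPM with IFNg and 0.300 to 0.352 CPM with vehicle, and TRAC at 62.9 and 60.5 CPM with IFNg and 65.3 to 74.9 CPM with vehicle. The part of T cell RNA in the results of these genes was not tested. LAG3, an inhibitory receptor that binds MHC class II, and STAT4, a transcription factor downstream of interleukin 12, were looked at after their values had been seen. LAG3 stood at 4.84 and 6.57 CPM with IFNg and 2.36 to 3.79 CPM in the vehicle libraries (0.88 ± 0.21). STAT4 stood at 5.15 and 8.79 CPM with IFNg and 3.74 to 4.87 CPM in the vehicle libraries (0.71 ± 0.18). Both were called higher in the panel and in the pretreatment experiment. IL12RB2, a chain of the interleukin 12 receptor, stood at 13.6 and 12.4 CPM with IFNg and 3.74 to 6.44 CPM in the vehicle libraries (1.25 ± 0.14), again with no overlap.

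Nucleic acid and protein turnover gave another group. XRN1, the main cytoplasmic 5′ to 3′ exoribonuclease, stood at 186 and 201 CPM with IFNg, against 71.1 and 74.6 CPM with DMSO and 68.8 and 73.6 CPM with PBS (1.42 ± 0.046, adjusted p = 1.49e-22). AIM2, a sensor of cytosolic DNA that forms an inflammasome, stood at 31.1 and 33.5 CPM with IFNg, against 13.2 and 10.8 CPM with DMSO and 11.7 and 11.9 CPM with PBS (1.44 ± 0.089). FBXO6, the part of a ubiquitin ligase that recognises glycoproteins, stood at 72.6 and 70.5 CPM with IFNg and 24.5 to 27.1 CPM in the vehicle libraries (1.47 ± 0.065). The lower IFNg library of each gene was above the highest vehicle library. SLFN12L, a member of the Schlafen family, stood at 20.6 and 24.4 CPM with IFNg and 7.62 to 8.21 CPM in the vehicle libraries (1.52 ± 0.11). BCL2L14, a BCL2 family member, stood at 14.3 and 16.4 CPM with IFNg and 1.68 to 2.40 CPM in the vehicle libraries (2.95 ± 0.17). Neither overlapped with vehicle. RNF24, a RING finger protein, stood at 24.9 and 23.1 CPM with IFNg and 6.91 to 9.18 CPM in the vehicle libraries (1.53 ± 0.10). The zinc finger gene ZNF697 stood at 15.9 and 14.3 CPM with IFNg and 4.66 to 5.67 CPM in the vehicle libraries (1.54 ± 0.13). The groups stood apart for these 2 as well.

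The others were genes of metabolism, membrane and cytoskeleton. BPGM, which makes 2,3-bisphosphoglycerate, stood at 56.4 and 48.4 CPM with IFNg and 18.5 to 22.02 CPM in the vehicle libraries (1.41 ± 0.079). ELOVL7, a fatty acid elongase, stood at 4.90 and 6.21 CPM with IFNg and 0.946 to 1.77 CPM in the vehicle libraries (2.00 ± 0.27). Both were above all vehicle libraries. RHOBTB3 stood at 51.8 and 54.3 CPM with IFNg and 16.1 to 21.1 CPM in the vehicle libraries (1.55 ± 0.072). The gene of the potassium channel KCNC4 stood at 4.84 and 5.71 CPM with IFNg and 1.39 to 1.55 CPM in the vehicle libraries (1.83 ± 0.22). In both the groups did not overlap. NEXN, an actin-binding protein, stood at 14.9 and 17.8 CPM with IFNg and 4.30 to 6.87 CPM in the vehicle libraries (1.496 ± 0.13). MYH7, the slow and cardiac myosin heavy chain, stood at 8.31 and 9.09 CPM with IFNg and 2.99 to 3.13 CPM in the vehicle libraries (1.497 ± 0.15). For both, all IFNg libraries were above all vehicle libraries. MYH7 may share reads with its near-identical neighbour MYH6, and it was at 1.75 ± 0.134 TPM with IFNg (SD, n = 2). The call of MYH7 in the pretreatment experiment was close to the threshold (adjusted p = 0.0490, edgeR).

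**Figure D2:**
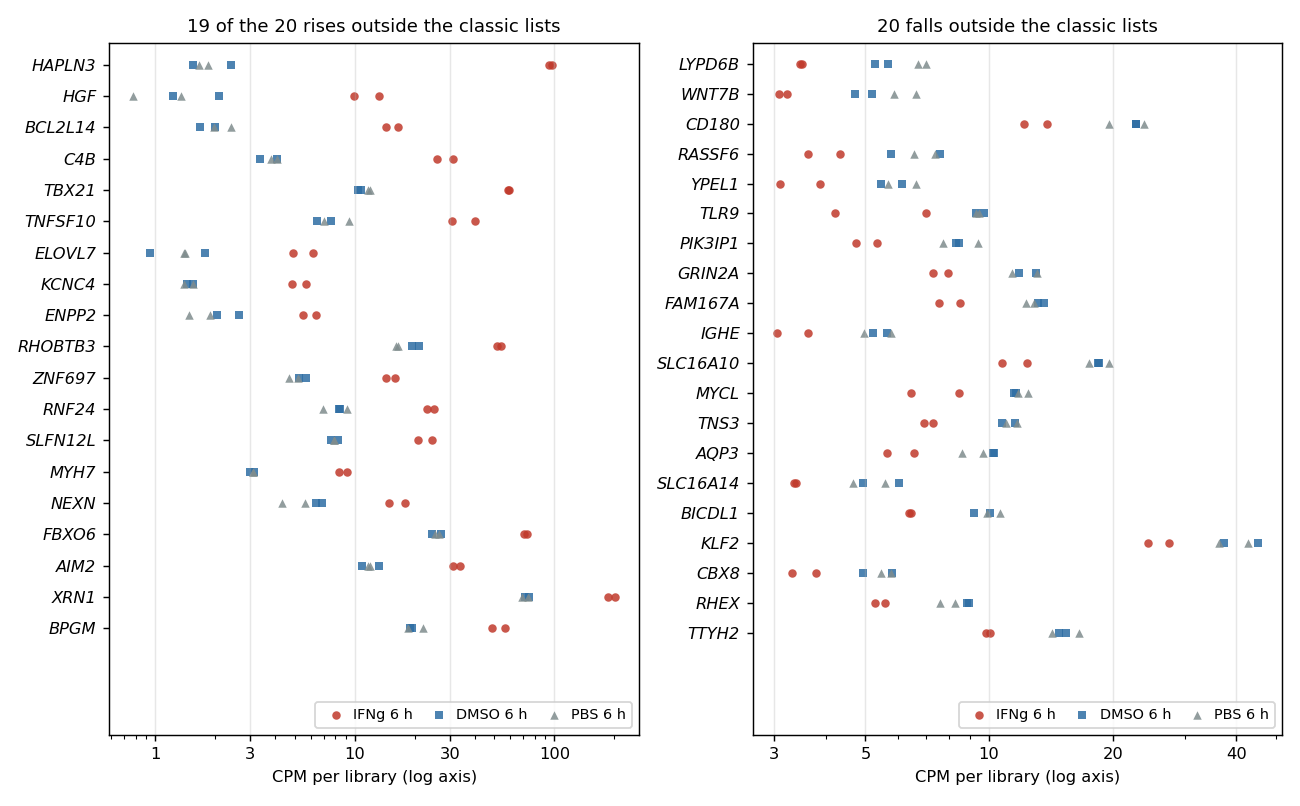
Level in each of the 6 libraries (horizontal log axis, CPM) of 19 of the 20 largest rises (left) and the 20 largest falls (right) outside the classic lists, with IFNg as red circles, DMSO as blue squares and PBS as grey triangles. The IFNg libraries of HAPLN3 sit at 93.8 and 97.3 CPM, right of all vehicle libraries, while the falls are all under 2-fold.

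The falls were shallower. The 20 largest falls by the same rule ranged from -0.81 ± 0.15 for LYPD6B to -0.61 ± 0.11 for TTYH2 on the log2 scale. All 20 were also lower in the pretreatment experiment by fitted fold change, 9 of them called, where 3.15% of all tested genes were called lower. Against TNF, LPS and IL2 together 18 were called lower, all but TLR9 and SLC16A14, where 5.29% of all tested genes were. This contrast again holds the IFNg libraries by which the genes were chosen. The lack of overlap given below for the 20 falls follows from the rule as well. Without 1 of the IFNg libraries, 8 of the 20 lost their call: WNT7B, RASSF6, YPEL1, TLR9, IGHE, SLC16A14, CBX8 and RHEX. Their log2 fold changes when a library was left out were -0.86 to -0.77, -0.92 to -0.65, -0.93 to -0.62, -1.15 to -0.43, -0.81 to -0.57, -0.72 to -0.57, -0.73 to -0.53 and -0.66 to -0.59. SLC16A14 also lost its call without DMSO replicate 1. The other 12 kept their call without any 1 library.

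CD180, a surface protein related to Toll-like receptors that modulates B cell responses to LPS, stood at 13.8 and 12.2 CPM with IFNg, against 22.8 and 22.8 CPM with DMSO and 19.5 and 23.8 CPM with PBS (-0.78 ± 0.092, adjusted p = 7.96e-08). KLF2, a transcription factor of lymphocyte quiescence and trafficking, stood at 24.4 and 27.5 CPM with IFNg, against 37.3 and 45.2 CPM with DMSO and 42.8 and 36.3 CPM with PBS (-0.63 ± 0.083, adjusted p = 1.99e-06). Each IFNg library was below each vehicle library in both genes. Both were called lower in the pretreatment experiment too (-0.77 ± 0.14 and -0.49 ± 0.12). TLR9, the receptor of unmethylated DNA in endosomes, stood at 4.22 and 7.004 CPM with IFNg, against 9.71 and 9.31 CPM with DMSO and 9.45 and 9.27 CPM with PBS (-0.75 ± 0.17, adjusted p = 0.00274), with the IFNg libraries well apart from each other, and it was not called in the pretreatment experiment (-0.49 ± 0.41). TLR7, the endosomal receptor of single-stranded RNA, named after its value was seen, went the other way (0.77 ± 0.078).

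PIK3IP1, an inhibitor of phosphoinositide 3-kinase, stood at 5.33 and 4.73 CPM with IFNg and 7.70 to 9.38 CPM in the vehicle libraries (-0.74 ± 0.14), and in the pretreatment experiment it had -0.078 ± 0.16, which was not called. SLC16A10, a transporter of aromatic amino acids, stood at 12.4 and 10.8 CPM with IFNg and 17.5 to 19.6 CPM in the vehicle libraries (-0.67 ± 0.1). AQP3, a channel for water and glycerol, stood at 5.64 and 6.57 CPM with IFNg and 8.57 to 10.3 CPM in the vehicle libraries (-0.65 ± 0.12). The IFNg libraries of these 3 were below all vehicle libraries. TNS3, an adaptor of integrin adhesions, stood at 6.95 and 7.31 CPM with IFNg and 10.8 to 11.7 CPM in the vehicle libraries (-0.66 ± 0.11). MYCL, a member of the MYC family, stood at 8.43 and 6.45 CPM with IFNg and 11.5 to 12.4 CPM in the vehicle libraries (-0.66 ± 0.12). SLC16A10, AQP3, TNS3 and MYCL were called lower in both experiments. GRIN2A, a subunit of NMDA receptors, stood at 7.32 and 7.93 CPM with IFNg and 11.3 to 13.1 CPM in the vehicle libraries (-0.70 ± 0.11). WNT7B, a WNT ligand, stood at 3.23 and 3.07 CPM with IFNg and 4.72 to 6.63 CPM in the vehicle libraries (-0.81 ± 0.21). IGHE, the constant region of immunoglobulin E, stood at 3.04 and 3.62 CPM with IFNg and 4.96 to 5.78 CPM in the vehicle libraries (-0.69 ± 0.17). The groups of these 3 genes did not overlap. In the pretreatment experiment WNT7B was called lower (-1.01 ± 0.22), while GRIN2A (-0.17 ± 0.15) and IGHE (-0.16 ± 0.21) were not called. The remaining falls were FAM167A, BICDL1, TTYH2, YPEL1, RASSF6, CBX8, LYPD6B, RHEX and SLC16A14, between 3.10 CPM for YPEL1 and 10.1 CPM for TTYH2 in the IFNg libraries. In all 9 the groups stood apart, as the rule required. FAM167A (-0.77 ± 0.12) and YPEL1 (-0.71 ± 0.16) were also called lower in the pretreatment experiment. The others of the 9 were not called there, among them LYPD6B (-0.17 ± 0.17) and RHEX (-0.088 ± 0.18).

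In the receptor pathway itself, 7 of 13 genes were called higher and 1 lower. Over all tested genes 7.11% were called higher and 4.75% lower, shares that belong beside each list count below. In the pretreatment experiment at 6 h they were 3.47 and 3.15% of 15183. The list members named below were mostly those with the smallest adjusted p. Separate groups were common among called genes, with 1100 of 1122 higher and 728 of 750 lower. They occurred upward in 14.2% and downward in 14.3% of all tested genes. A lack of overlap given below thus adds little to a call. IFNGR1, the ligand-binding receptor chain, stood at 119.7 and 121 CPM with IFNg, against 151 and 148 CPM with DMSO and 143 and 149.5 CPM with PBS (-0.30 ± 0.043, adjusted p = 3.60e-06). IFNGR2, the signalling chain, named after its value was seen, stood at 77.1 and 79.7 CPM with IFNg and 76.3 to 81.7 CPM in the vehicle libraries (-0.012 ± 0.051) and was not called. The difference between the changes of the chains was not tested. STAT3 stood at 496 and 478 CPM with IFNg and 282 to 299.9 CPM in the vehicle libraries (0.76 ± 0.036). JAK2 stood at 75.9 and 85.5 CPM with IFNg and 40.1 to 47.2 CPM in the vehicle libraries (0.91 ± 0.076). Both were above all vehicle libraries, as was STAT2 (1.24 ± 0.038). The brakes of the pathway were called higher in 7 of 17 cases. SOCS3 stood at 43.7 and 39.4 CPM with IFNg and 9.71 to 11.8 CPM in the vehicle libraries (1.93 ± 0.083). SOCS1 stood at 69.5 and 66.9 CPM with IFNg and 16.1 to 21.6 CPM in the vehicle libraries (1.83 ± 0.082). CISH stood at 9.74 and 8.85 CPM with IFNg and 4.02 to 4.63 CPM in the vehicle libraries (1.12 ± 0.13), and the phosphatase genes PTPN1 and PTPN2 had 0.27 ± 0.039 and 0.43 ± 0.063. STAT2, STAT3 and the 3 SOCS family genes named here were thus higher, with IFNGR1 lower. Without PBS replicate 1 a second gene of the receptor list was called lower.

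Interferon genes themselves had few or 0 counts, and those of the IFNA family may share reads. IFNB1 had 1 count over both IFNg libraries and 3 over the 4 vehicle libraries, IFNA2 had 26 and 52, and IFNG had 11 and 13. IFNA1 and IFNL1 had 0 counts in all 6 libraries. The receptor genes IFNAR1, IFNAR2 and IFNLR1 had -0.078 ± 0.05, -0.013 ± 0.05 and -0.15 ± 0.081. Of the 4 tested genes of this list 0 were called in edgeR, 0 at an unadjusted p under 0.05 and 0 in DESeq2. The part of other interferons in the rise of the type I interferon-stimulated genes was not tested.

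Gene families linked to interferon outside the classic lists were next, some of whose members the classic lists also hold. Of 17 tested genes for ADP-ribosyltransferases (PARP family and the partner DTX3L) 10 were called higher, with a median of 0.35, where 7.11% of all tested genes were higher. PARP9 stood at 269.6 and 289 CPM with IFNg and 62.9 to 75.7 CPM in the vehicle libraries (2.01 ± 0.087). PARP14 stood at 792 and 848 CPM with IFNg and 299 to 316 CPM in the vehicle libraries (1.42 ± 0.04). DTX3L, the partner of PARP9, had 1.89 ± 0.07. PARP12 had 0.96 ± 0.077, TIPARP 0.47 ± 0.053 and PARP10 0.35 ± 0.045. The groups did not overlap for any of these 6, as for most called genes. Of the family 8 of 17 were called higher in the pretreatment experiment, where 3.47% of all tested genes were.

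All 5 tested genes of the apolipoprotein L family, which includes the trypanosome-lysing APOL1, were called higher, beside 7.11% of all tested genes. APOL6 stood at 315 and 336 CPM with IFNg, against 50.6 and 54.6 CPM with DMSO and 46.8 and 51.6 CPM with PBS (2.67 ± 0.05, adjusted p = 1.85e-28). Both IFNg libraries of APOL6 were above all its vehicle libraries. APOL2 stood at 108 and 104 CPM with IFNg and 34.4 to 39.7 CPM in the vehicle libraries (1.53 ± 0.058). APOL1 stood at 102 and 108 CPM with IFNg and 44.8 to 50.7 CPM in the vehicle libraries (1.14 ± 0.052). APOL3 stood at 41.8 and 43.2 CPM with IFNg and 21.6 to 23.4 CPM in the vehicle libraries (0.91 ± 0.079). These 3 did not overlap with vehicle either. APOL4 was close to absence, with 19 counts over both IFNg libraries and 3 over the 4 vehicle libraries, a ratio of 15.0 (95% counting interval 4.43 to 79.4). The family members are similar in sequence and may share reads.

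In ISG15 and ubiquitin conjugation 13 of 17 genes were called higher (median 0.45). Beside each list count of this paragraph, 7.11% of all tested genes were higher and 4.75% lower. UBD, a ubiquitin-like modifier that targets proteins to the proteasome, stood at 227 and 219 CPM with IFNg and 16.6 to 21.7 CPM in the vehicle libraries (3.48 ± 0.061). UBE2L6, the conjugating enzyme of ISG15, stood at 246 and 245 CPM with IFNg and 89.1 to 102 CPM in the vehicle libraries (1.39 ± 0.052). The giant ubiquitin ligase gene RNF213 stood at 913 and 1062 CPM with IFNg and 410.2 to 445 CPM in the vehicle libraries (1.22 ± 0.05). The groups of these 3 genes stood apart. RBCK1, a part of the linear ubiquitin ligase, had 0.50 ± 0.044. Of 33 TRIM genes 11 were called higher, led by TRIM21, an intracellular antibody receptor, at 67.5 and 71.8 CPM with IFNg and 32.9 to 35.2 CPM in the vehicle libraries (1.03 ± 0.063). TRIM69, PML and TRIM25 had 0.69 ± 0.045, 0.73 ± 0.047 and 0.59 ± 0.041. TRIM8, the 1 member called lower, had -0.20 ± 0.059 and lost the call without DMSO replicate 2, IFNg replicate 2 or PBS replicate 1, and 2 members were lower without PBS replicate 2. The median of the TRIM genes was 0.026. Of 6 genes of the SP100 family and its nuclear bodies 4 were called higher: PML, SP110 (0.63 ± 0.047), SP140L (0.44 ± 0.08) and SP100 (0.24 ± 0.051). SP100 lost its call without IFNg replicate 2.

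Sensors of nucleic acids were called higher in 11 of 25 cases and lower in 1, TLR9. Of all tested genes 7.11% were higher and 4.75% lower. RIGI, a sensor of viral RNA, stood at 43.5 and 51.0 CPM with IFNg and 17.97 to 26.1 CPM in the vehicle libraries (1.18 ± 0.12). IFIH1, its relative MDA5, stood at 139 and 162 CPM with IFNg and 87.9 to 102 CPM in the vehicle libraries (0.71 ± 0.065). IFI16, a DNA sensor, stood at 425 and 444 CPM with IFNg and 251 to 286 CPM in the vehicle libraries (0.72 ± 0.057). The adaptor gene MYD88 had 0.33 ± 0.043 and the RNA editor ADAR 0.28 ± 0.038. These 5 had separate groups.

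Cell death genes were called higher in 21 of 36 cases and lower in 1 (median 0.28). The shares of all tested genes were 7.11% higher and 4.75% lower. The members that rose act on both sides. On the death side, FAS stood at 111 and 106 CPM with IFNg and 66.1 to 72.2 CPM in the vehicle libraries (0.65 ± 0.049). XAF1, an antagonist of XIAP, stood at 155 and 180.0 CPM with IFNg and 75.1 to 88.8 CPM in the vehicle libraries (1.03 ± 0.061), beside TNFSF10. Their groups did not overlap. On the survival side, MCL1 stood at 618 and 634 CPM with IFNg, against 393 and 420.4 CPM with DMSO and 384 and 398 CPM with PBS (0.65 ± 0.038, adjusted p = 3.13e-15). CFLAR, the inhibitor of caspase 8, stood at 494 and 514 CPM with IFNg and 372 to 398 CPM in the vehicle libraries (0.39 ± 0.036). The groups were separate here too. CASP6, an executioner caspase, was the gene called lower, at 8.43 and 9.09 CPM with IFNg and 11.3 to 14.2 CPM in the vehicle libraries (-0.55 ± 0.11). With pretreatment 13 of 36 were higher and 1 lower, beside 3.47% higher and 3.15% lower of all tested genes.

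Transcription factor genes of the IRF, BATF and ETV kind were called higher in 11 of 18 cases (median 0.39), beside 7.11% of all genes. BATF2 stood at 4.53 and 4.98 CPM with IFNg and 0.681 to 0.796 CPM in the vehicle libraries (2.69 ± 0.27). ETV7 stood at 25.4 and 22.4 CPM with IFNg and 7.05 to 8.16 CPM in the vehicle libraries (1.66 ± 0.099). IRF8 stood at 417 and 409 CPM with IFNg and 209 to 235 CPM in the vehicle libraries (0.90 ± 0.036). IRF5 had 0.63 ± 0.039 and IRF2 0.64 ± 0.05. Each gene had separate groups.

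B cell transcription factor genes were called lower in 10 of 30 cases and higher in 5 (median -0.082). The shares of all tested genes were 4.75% lower and 7.11% higher. ID3, an inhibitor of E proteins, stood at 41.8 and 40.9 CPM with IFNg and 55.0 to 63.7 CPM in the vehicle libraries (-0.47 ± 0.061). MEF2B stood at 56.3 and 57.9 CPM with IFNg and 71.6 to 78.7 CPM in the vehicle libraries (-0.39 ± 0.06). POU2F2 (OCT2) stood at 114 and 99.8 CPM with IFNg and 118 to 156 CPM in the vehicle libraries (-0.36 ± 0.055), beside KLF2. In these 3 the IFNg libraries lay below all vehicle libraries. The 5 that were higher were IRF8, PAX5 (0.19 ± 0.04), RUNX3 (0.26 ± 0.043), PRDM1 (0.28 ± 0.068) and BCL6. PRDM1 lost its call without IFNg replicate 1. BCL6, the repressor that drives germinal centre B cells, stood at 2.29 and 1.97 CPM with IFNg, against 0.227 and 0.398 CPM with DMSO and 0.0705 and 0.0870 CPM with PBS (3.69 ± 0.48, adjusted p = 4.99e-07). The rise of BCL6 was large as a ratio, but its level stayed under 3 CPM in all 6 libraries. In the pretreatment experiment 8 of 30 genes of the list were called lower and 4 higher, beside 3.15 and 3.47% of all tested genes. Called in both experiments were 7 lower and 2 higher.

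Genes of B cell receptor signalling were called lower in 13 of 39 cases and higher in 5 (median -0.13). Of all tested genes 4.75% were lower and 7.11% higher. CD22, an inhibitory receptor, stood at 153 and 146 CPM with IFNg, against 206 and 204 CPM with DMSO and 212 and 212 CPM with PBS (-0.48 ± 0.043, adjusted p = 1.85e-10). Both IFNg libraries were below every vehicle library. The kinase gene BLK stood at 220.1 and 215 CPM with IFNg and 278 to 298 CPM in the vehicle libraries (-0.41 ± 0.037). SYK stood at 95.2 and 95.7 CPM with IFNg and 117 to 128 CPM in the vehicle libraries (-0.36 ± 0.049). FYN stood at 65.2 and 64.3 CPM with IFNg and 82.0 to 88.6 CPM in the vehicle libraries (-0.39 ± 0.047). The same held for these 3 kinases. The kinase gene LYN went the other way with 0.14 ± 0.038, as did DAPP1 (0.33 ± 0.054), CD72 (0.35 ± 0.089) and SOS1 (0.23 ± 0.058). Without IFNg replicate 2 the list had 8 lower and 1 higher, and without IFNg replicate 1 it had 3 higher. In the pretreatment experiment 12 of 38 were lower, 8 of them called in both experiments, where 3.15% of all tested genes were lower with pretreatment.

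Costimulatory and checkpoint genes were called higher in 16 of 30 cases and lower in 3 (median 0.20). The shares of all tested genes were 7.11% higher and 4.75% lower. CD274, the checkpoint ligand PD-L1, stood at 85.1 and 88.8 CPM with IFNg, against 48.3 and 42.6 CPM with DMSO and 44.1 and 47.0 CPM with PBS (0.93 ± 0.057). CD226 stood at 192 and 204 CPM with IFNg and 125 to 152 CPM in the vehicle libraries (0.49 ± 0.044). Both were above all vehicle libraries. SLAMF1 stood at 281 and 288 CPM with IFNg and 197 to 230.0 CPM in the vehicle libraries (0.44 ± 0.038). SLAMF7 stood at 717 and 709 CPM with IFNg and 547 to 585 CPM in the vehicle libraries (0.34 ± 0.034). The SLAM genes were above vehicle without overlap as well. The 3 called lower were ICOSLG (-0.27 ± 0.057), VSIR (-0.39 ± 0.086) and BTLA (-0.21 ± 0.053). Without IFNg replicate 1 the list had 9 higher, and without IFNg replicate 2 it had 1 lower. With pretreatment 6 of 30 were higher and 4 lower, beside 3.47% higher and 3.15% lower of all tested genes.

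Cytokine genes were called higher in 12 of 31 cases and lower in 5, beside 7.11% higher and 4.75% lower of all tested genes. TNF stood at 159 and 174 CPM with IFNg, against 108 and 112 CPM with DMSO and 121 and 116 CPM with PBS (0.55 ± 0.043, adjusted p = 8.58e-12). IL18BP, the soluble antagonist of interleukin 18, stood at 51.2 and 52.8 CPM with IFNg and 34.4 to 38.99 CPM in the vehicle libraries (0.53 ± 0.071). The genes called lower were IL16 at 95.4 and 88.1 CPM with IFNg and 115 to 141 CPM in the vehicle libraries (-0.46 ± 0.047), IL23A (-0.92 ± 0.19), IL1B (-0.57 ± 0.17), TNFSF14 (-0.27 ± 0.072) and LTB (-0.17 ± 0.055). The count of 5 was 3 without IFNg replicate 1, 2 without IFNg replicate 2 and 3 without PBS replicate 2. Cytokine receptor genes were called in both directions, 8 higher and 9 lower of 34. IL15RA stood at 23.8 and 26.7 CPM with IFNg and 10.1 to 12.8 CPM in the vehicle libraries (1.17 ± 0.097). IL2RA stood at 22.1 and 21.6 CPM with IFNg and 13.1 to 15.6 CPM in the vehicle libraries (0.58 ± 0.086). Both were above all vehicle libraries. On the other side, IL27RA stood at 32.6 and 31.8 CPM with IFNg and 44.4 to 51.0 CPM in the vehicle libraries (-0.54 ± 0.069). TNFRSF13C, the receptor of BAFF, stood at 127 and 127 CPM with IFNg and 152 to 176 CPM in the vehicle libraries (-0.35 ± 0.043). Both were below all vehicle libraries. The receptor list had 4 lower without IFNg replicate 1 and 5 higher without IFNg replicate 2.

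Of 14 tested chemokine genes other than the CXCR3 ligands, CCL5 was called higher (0.30 ± 0.089) and CCL17 lower (-0.24 ± 0.072). That is 7.14% each way, beside 7.11% higher and 4.75% lower of all tested genes, and neither kept its call without IFNg replicate 1. CCL5 also lost it without DMSO replicate 1 and CCL17 without DMSO replicate 2, and 2 members were lower without PBS replicate 2. The receptors of chemoattractants were called higher in 3 of 19 cases. CXCR5, the receptor that guides B cells to follicles, stood at 18.3 and 15.2 CPM with IFNg, against 7.94 and 8.51 CPM with DMSO and 9.80 and 9.10 CPM with PBS (0.93 ± 0.11, adjusted p = 4.87e-08). CMKLR1 stood at 114 and 111 CPM with IFNg and 62.9 to 77.7 CPM in the vehicle libraries (0.70 ± 0.051). Both were above all vehicle libraries. CCR7, the receptor for entry into lymph nodes, stood at 346 and 351 CPM with IFNg and 272 to 292 CPM in the vehicle libraries (0.30 ± 0.036). GPR183, the oxysterol receptor that also positions B cells, stood at 59.4 and 57.6 CPM with IFNg and 73.7 to 77.2 CPM in the vehicle libraries (-0.37 ± 0.05). CCR7 was above, and GPR183 below, all vehicle libraries. The other members called lower were S1PR4 (-0.41 ± 0.10), which lost its call without IFNg replicate 1, and C5AR1 at 0.682 and 0.369 CPM with IFNg and 1.00 to 1.48 CPM in the vehicle libraries (-1.19 ± 0.37), which lost it without DMSO replicate 1 or 2, IFNg replicate 2 or PBS replicate 1. Without PBS replicate 2, 5 members were lower.

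NF-kB genes were called higher in 11 of 24 cases, all by less than 1.5-fold. With PBS alone as control 5 were called higher and 1 lower, and with a minimum fold of 1.2 the number higher was 0. Beside the list counts of this paragraph, 7.11% of all tested genes were higher and 4.75% lower. TRAF1 stood at 766 and 776 CPM with IFNg and 562 to 655 CPM in the vehicle libraries (0.34 ± 0.035). NFKB1 stood at 252 and 262 CPM with IFNg and 211 to 227 CPM in the vehicle libraries (0.24 ± 0.039). CYLD, a deubiquitinase that restrains the pathway, stood at 211 and 216 CPM with IFNg and 166 to 182 CPM in the vehicle libraries (0.29 ± 0.043). The number of NF-kB genes called higher was 6 without IFNg replicate 1 and 7 without IFNg replicate 2. In the pretreatment experiment 3 of 24 were called higher, beside 3.47% of all tested genes. Immediate-early genes were called higher in 9 of 28 cases and lower in 4. DUSP5, a phosphatase of ERK, stood at 143 and 153 CPM with IFNg and 81.5 to 96.6 CPM in the vehicle libraries (0.74 ± 0.048), and the genes called lower were KLF2, EGR3 (-0.58 ± 0.11), IER5 (-0.34 ± 0.045) and EGR2 (-0.23 ± 0.075). EGR2 lost its call without any 1 library except PBS replicate 1.

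Complement genes were called higher in 3 of 13 cases, genes of tryptophan, arginine and biopterin metabolism in 3 of 14 and cathepsin and lysosomal protease genes in 4 of 20, beside 7.11% of all tested genes. The complement list also held 1 gene called lower, beside 4.75% of all tested genes, and its median was -0.057. That count was 0 without DMSO replicate 1 or 2 or IFNg replicate 2. Beside C4A and C4B, SERPING1, the C1 inhibitor, was called higher, with 18 counts over both IFNg libraries and 1 over the 4 vehicle libraries, a ratio of 42.8 (95% counting interval 6.75 to 1781). Most of the counts came from IFNg replicate 2, with 3 in IFNg replicate 1 and 15 in replicate 2. WARS1, the tryptophanyl-tRNA synthetase, stood at 2351 and 2383 CPM with IFNg, against 443 and 459 CPM with DMSO and 436 and 469 CPM with PBS (2.39 ± 0.038). GCH1, which starts biopterin synthesis, stood at 31.1 and 30.8 CPM with IFNg and 22.6 to 24.5 CPM in the vehicle libraries (0.40 ± 0.074). KYAT3 stood at 41.4 and 39.8 CPM with IFNg and 28.6 to 35.6 CPM in the vehicle libraries (0.30 ± 0.072), and the groups stood apart in all 3. KYAT3 lost its call without IFNg replicate 1. Among cathepsin and lysosomal genes CTSS (0.45 ± 0.049), CTSO (0.48 ± 0.067), LAMP3 (0.52 ± 0.041) and LAMP2 (0.19 ± 0.052) were called higher and CTSH lower (-0.22 ± 0.035). LAMP2 lost its call without DMSO replicate 1 or IFNg replicate 2, and 2 members were lower without PBS replicate 2.

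Genes of the constitutive proteasome were called higher in 10 of 31 cases, beside 7.11% of all tested genes. PSMA4 stood at 144 and 148 CPM with IFNg and 101 to 118 CPM in the vehicle libraries (0.41 ± 0.047). PSMA2 stood at 184 and 195 CPM with IFNg and 133 to 155 CPM in the vehicle libraries (0.37 ± 0.046). PSMB2 stood at 194 and 188 CPM with IFNg and 159 to 166 CPM in the vehicle libraries (0.23 ± 0.04). Of the 6 with the smallest p, 4 were alpha subunits, a count of genes picked by p and not of the whole list. PSMA1, 1 of these 4, lost its call without IFNg replicate 2. Without IFNg replicate 1 the number was 6. Of 75 ribosomal protein genes 0 were called in edgeR, 0 at an unadjusted p under 0.05 and 0 in DESeq2, and their median was 0.0061, between -0.043 and 0.076. Ribosome biogenesis and oxidative phosphorylation genes were called higher in 3 of 40 and 2 of 47 cases (TSR1, NOLC1 and RRP9, and NDUFA9 and SDHA), beside 7.11% of all genes. TSR1, NOLC1 and RRP9 were not called without IFNg replicate 1. Of the oxidative phosphorylation genes 0 were called without IFNg replicate 2, and 1 without IFNg replicate 1, DMSO replicate 1, DMSO replicate 2 or PBS replicate 2. In glycolysis HK1, the first enzyme of the pathway, stood at 168 and 171 CPM with IFNg and 118 to 127 CPM in the vehicle libraries (0.47 ± 0.04). SLC2A3, PFKP and PGAM1 were called higher too and SLC2A1, PFKL and ENO2 lower, all by under 0.25 log2 units. The glycolysis list had 2 higher without IFNg replicate 1 or DMSO replicate 1, and it had 0 lower without IFNg replicate 2 and 1 lower without IFNg replicate 1, DMSO replicate 2 or PBS replicate 1.

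Cell cycle genes showed small values. Beside the list counts of this paragraph, 7.11% of all tested genes were called higher and 4.75% lower. Of 37 S phase genes 6 were called lower (CDC6, CDT1, MCM3, MCM4, MCM5 and E2F2), the largest being -0.33 ± 0.10 for E2F2, with a list median of -0.096. None of them was called without IFNg replicate 2, and 2 were without DMSO replicate 2. In the pretreatment experiment 1 S phase gene was called, and 0 were called lower in both experiments. Of 26 genes for G2 and M phase 0 were called in edgeR and 0 in DESeq2, with 5 at an unadjusted p under 0.05 (median -0.038). Without PBS replicate 1, 1 of them was called higher and 2 lower, without PBS replicate 2, 2 were higher, and without DMSO replicate 2, 1 was lower. Of genes of the phosphoinositide 3-kinase and mTOR pathway 6 of 28 were called lower and 1 higher (AKT2, 0.17 ± 0.042). With pretreatment 3 of them were called lower and 0 higher, beside 3.15% lower and 3.47% higher of all tested genes. Only 1 was called lower in both experiments. Without IFNg replicate 1 the list had 2 lower and 0 higher, and without IFNg replicate 2 it had 2 lower. Among 31 sterol and fatty acid genes 5 were higher, among them STARD4 (0.37 ± 0.043), SC5D (0.40 ± 0.071), HMGCS1 and INSIG1. FADS2 was lower (-0.17 ± 0.047), and without IFNg replicate 1 the list had 3 higher and 0 lower. It had 0 lower without IFNg replicate 2 and 2 lower without PBS replicate 2. In the ATF4 and unfolded protein response list, 6 of 21 were higher, led by ATF3 at 23.3 and 23.8 CPM with IFNg and 11.2 to 12.2 CPM in the vehicle libraries (0.98 ± 0.095), and 3 were higher without IFNg replicate 2. In the heat shock list of 14 tested genes, DNAJA1 (0.48 ± 0.055), HSPA8 (0.22 ± 0.041) and HSPA1A (0.30 ± 0.074) were higher and HSPB1 lower (-0.21 ± 0.067). HSPA1A may share reads with HSPA1B. HSPB1 lost its call without DMSO replicate 1 or 2, IFNg replicate 2 or PBS replicate 1, and 5 members were higher without PBS replicate 2. Of 11 tested MYC network genes MAX, the partner of MYC, was the 1 called higher (0.35 ± 0.049), with MYCL and MXD4 (-0.26 ± 0.049) lower.

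**Figure D3:**
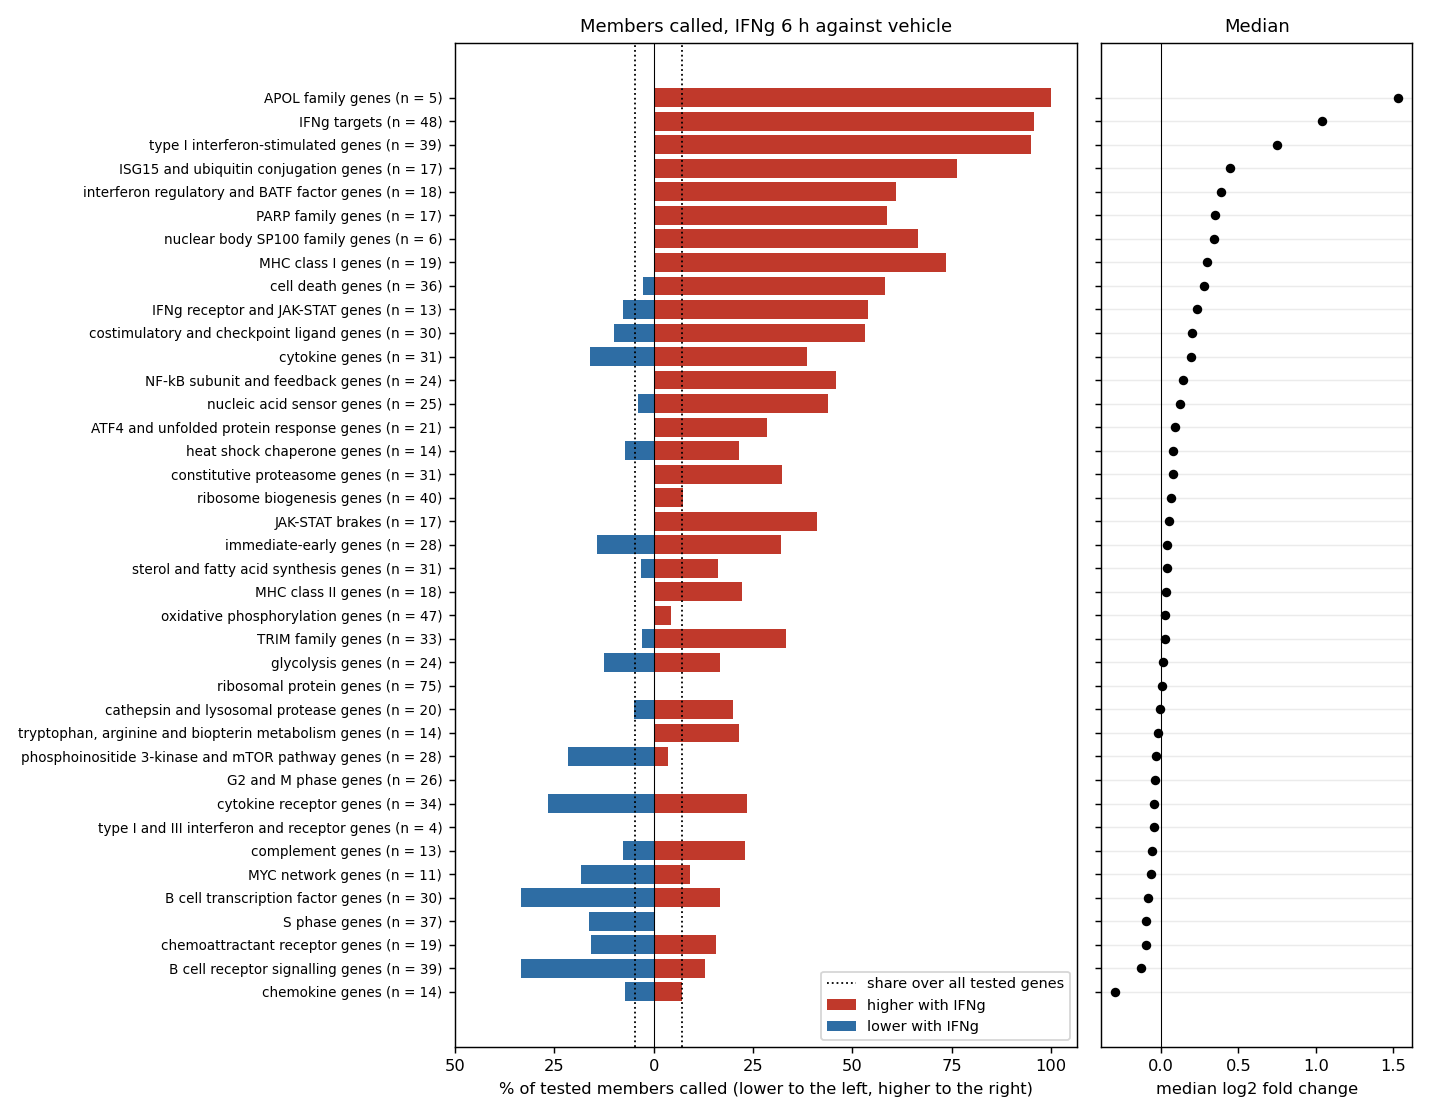
Share of tested members called higher with IFNg (red, to the right) or lower (blue, to the left), in % of the number given after each name, and the median log2 fold change of each list (right). Dotted lines mark the shares over all tested genes, 7.11% higher and 4.75% lower. The APOL, IFNg target and type I interferon lists have the largest shares of higher members, and the B cell receptor, B cell transcription factor and cytokine receptor lists hold the largest shares of lower members. Lists with under 4 tested members and cell markers are left out.

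Among genes with the most counts the changes were mostly small. The 6 called genes with the most counts on the upper side included B2M, the light chain of MHC class I, at 3595 and 3724 CPM with IFNg and 2942 to 3230.0 CPM in the vehicle libraries (0.23 ± 0.043), HLA-E (0.52 ± 0.036), the chaperones HSPA5 (0.17 ± 0.038) and HSPA8, and HLA-C (0.13 ± 0.037). HLA genes may share reads. HLA-C lost its call without either IFNg replicate or without DMSO replicate 1, and HSPA5 without IFNg replicate 2. On the lower side they included FLNA (-0.19 ± 0.038), ANXA6 (-0.12 ± 0.037), ARHGDIB (-0.18 ± 0.037), COTL1 (-0.13 ± 0.036) and PRKCB (-0.16 ± 0.039). FLNA, a crosslinker of actin, stood at 789 and 759.7 CPM with IFNg and 840.4 to 942 CPM in the vehicle libraries. COTL1 also binds actin, ARHGDIB inhibits small GTPases and ANXA6 binds membranes. FLNA, ARHGDIB and PRKCB lost their call without IFNg replicate 2, COTL1 without either IFNg replicate, and ANXA6 without any 1 IFNg or DMSO library.

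By annotated type, 1065 of 13016 tested protein-coding genes were called higher (8.18%) and 720 lower (5.53%), against 34 (1.98%) and 21 (1.22%) of 1718 long noncoding RNAs (lncRNAs). The lncRNAs had fewer counts, with a median of 1.05 CPM, against 25.4 CPM for protein-coding genes, and the part of depth in this difference was not tested. Called higher were KIF9-AS1 at 6.201 and 7.07 CPM with IFNg and 2.79 to 4.30 CPM in the vehicle libraries (0.98 ± 0.17), CYLD-AS1 (0.96 ± 0.20), USP30-AS1 (0.81 ± 0.16), MVP-DT (0.89 ± 0.23), GASAL1 (1.17 ± 0.36) and LINC02605 (1.42 ± 0.46). Called lower were LCT-AS1 at 1.74 and 1.78 CPM with IFNg and 3.24 to 3.90 CPM in the vehicle libraries (-1.05 ± 0.21), POU2F2-AS2 (-1.01 ± 0.24), GSEC (-1.27 ± 0.38), SCOC-AS1 (-0.96 ± 0.28), CTC-338M12.4 (-0.70 ± 0.20) and PSMB8-AS1. PSMB8-AS1 stood at 21.0 and 21.6 CPM with IFNg, against 33.1 and 32.2 CPM with DMSO and 31.2 and 31.3 CPM with PBS (-0.58 ± 0.071, adjusted p = 1.34e-07), while PSMB8, its partner on the other strand, stood at 296 and 293 CPM with IFNg and 182 to 199.5 CPM in the vehicle libraries (0.63 ± 0.039). The libraries mark the strand, but whether counting used it is not given, so reads of antisense pairs may be mixed. Without IFNg replicate 2, MVP-DT, GASAL1, LINC02605, GSEC, POU2F2-AS2 and CTC-338M12.4 lost their call, and without IFNg replicate 1, GASAL1, LINC02605, SCOC-AS1 and CTC-338M12.4 did. GASAL1 and LINC02605 lost it without most single vehicle libraries as well, and GSEC, SCOC-AS1 and CTC-338M12.4 without 1 or more of them.

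The strongest rises lay close to each other in the genome. Of the 130 rises over 2-fold, 40 (30.8%) had another of them within 100 kb, against 2.11% of the other tested genes that had such a rise within that distance. They formed 15 clusters. The largest, on chromosome 1 from 89006679 to 89388160 (hg38), held 8 genes, GBP1 to GBP6 and 2 further annotated genes among them. Others were CXCL9, CXCL10 and CXCL11 on chromosome 4, TAP1, TAP2 and PSMB9 on chromosome 6, APOL1, APOL2 and APOL4 on chromosome 22, and SLFN12L with 2 unnamed neighbours on chromosome 17. Pairs included IFIT2 and IFIT3, CMPK2 and RSAD2, PARP9 and DTX3L, C4A and C4B, UBE2L6 and SERPING1, OASL and P2RX7, TMEM51 and FHAD1, and GPR135 and L3HYPDH. Overlapping transcripts and near-identical copies can share reads in such clusters. The share of tested genes called higher ran from 3.12% on chromosome 19 to 13.4% on chromosome 18.

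The same IFNg contrast in the pretreatment experiment called 527 genes higher (3.47% of 15183) and 478 lower (3.15%). No library is shared between the experiments. Of the 1113 panel rises tested there, 1047 (94.1%) had the same direction, 457 (41.1%) were called higher and 0 were called lower (edgeR, with 2 lower at an unadjusted p under 0.05 and 0 in DESeq2). Of the 748 falls tested, 706 (94.4%) had the same direction, 303 (40.5%) were called lower and 0 were called higher (0 at an unadjusted p under 0.05 and 0 in DESeq2). Over all 15042 genes tested in both, the direction was the same in 64.4%. Read from the other side, 86.7% of the pretreatment rises and 63.4% of its falls were called in the panel. The size of the rise went with the share called again: 14.7% under 1.2-fold, 45.3% between 1.2 and 1.5-fold, 70.95% between 1.5 and 2-fold and 77.7% of the 121 above 2-fold. The falls had 35.9, 49.3 and 25.8% in the same 3 classes, and above 2-fold only 3 of 20 were called again and 13 of 20 had the same direction. The median log2 fold changes of the rises were 0.33 in the panel and 0.22 in the pretreatment experiment, and those of the falls were -0.29 and -0.24. A joint fit of the difference between the experiments called 0 of 16122 genes in edgeR (0.0%), and 968 (6.0%) had an unadjusted p under 0.05. No other tool was run on that difference. The 6 h pairs of the pretreatment experiment stood apart, with a chi-square per degree of freedom of 5.94 for DMSO+IFNg and 7.28 for DMSO+Veh. The IFNg pair of the panel had 2.60. CXCL9 stood at 62.1 and 224 CPM in the DMSO+IFNg libraries at 6 h. With such a spread, 0 calls do not show equal effects, and the part of this spread in the share called again was not tested. The pretreatment falls numbered 209 without DMSO+IFNg replicate 1 and 291 without DMSO+Veh replicate 1, and the rises 339 without DMSO+Veh replicate 2.

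**Figure D4:**
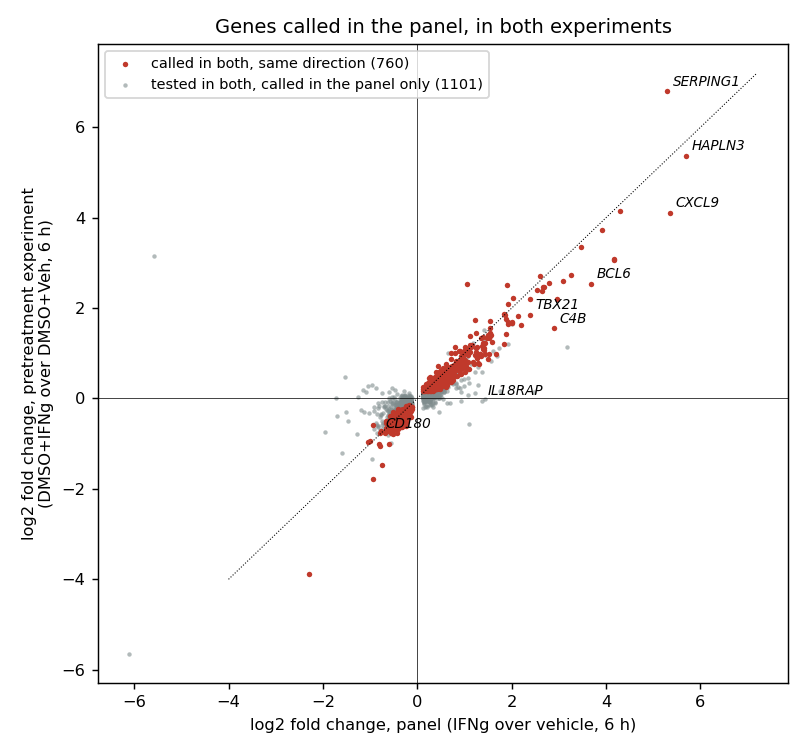
Log2 fold change at 6 h of genes called in the panel and tested in both experiments, in the panel (IFNg over vehicle, horizontal axis) and in the pretreatment experiment (DMSO+IFNg over DMSO+Veh, vertical axis). Red points were called in both in the same direction, grey points in the panel alone, and the dotted line marks equal values. HAPLN3 and CXCL9 lie far up on the right, and no point of either direction was called the opposite way.

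At 1 h the pretreatment experiment called 66 genes higher (0.435% of 15183) and 12 lower (0.079%). Of the panel rises at 6 h, 55 were among the 66, and of the falls 6 were among the 12. Of the 20 largest rises outside the classic lists, 6 were called at 1 h, among them HAPLN3 (2.37 ± 0.33), TBX21 (1.99 ± 0.19), ZNF697 (1.95 ± 0.15), TNFSF10 (0.89 ± 0.17) and BPGM (0.53 ± 0.12). Of the 20 largest falls 0 were called at 1 h in edgeR or DESeq2, with 1 at an unadjusted p under 0.05. IRF1 stood at 691 and 678 CPM with IFNg and 68.1 and 67.6 CPM with vehicle at 1 h (3.33 ± 0.19) and at 338 and 432 CPM with IFNg and 70.3 and 75.5 CPM with vehicle at 6 h (2.40 ± 0.18). SOCS3 had 3.05 ± 0.11 at 1 h and 1.65 ± 0.11 at 6 h, CISH 2.11 ± 0.20 and 1.19 ± 0.21, BCL6 4.04 ± 0.46 and 2.54 ± 0.49, and CXCR5 1.30 ± 0.13 and 0.53 ± 0.14. RHOBTB3, RNF24, XRN1 and FBXO6 had -0.015 ± 0.14, -0.037 ± 0.14, -0.017 ± 0.13 and 0.15 ± 0.082 at 1 h, none of them called, and 1.40 ± 0.13, 1.45 ± 0.12, 1.11 ± 0.12 and 1.34 ± 0.078 at 6 h, all called. IRF1, SOCS3, CISH, BCL6 and CXCR5 thus had larger values at 1 h. RHOBTB3, RNF24, XRN1 and FBXO6 had larger values at 6 h, but the difference between the times was not tested. ID3 and GPR183 were called lower at 1 h, with -0.73 ± 0.084 and -0.57 ± 0.079. At 1 h the falls numbered 4 without DMSO+Veh replicate 1 and 7 without any other of the 4 libraries, and the rises 43 without DMSO+Veh replicate 2.

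Against the mean of TNF, LPS and IL2 in the same panel, IFNg had 1082 genes higher (6.86%) and 835 lower (5.29%). This contrast shares the IFNg libraries with the main one, so its values are set beside them and are not a repeat. Of the rises against vehicle 908 (80.9%) were called here too, and of the falls 594 (79.2%). CD274 had 0.85 ± 0.053 here and 0.93 ± 0.057 against vehicle, MCL1 0.59 ± 0.035 and 0.65 ± 0.038, and CD22 -0.41 ± 0.041 and -0.48 ± 0.043. IL2RA, the alpha chain of the interleukin 2 receptor, and LTA, lymphotoxin alpha, were not called here (0.037 ± 0.079 and 0.077 ± 0.042), against 0.58 ± 0.086 and 0.35 ± 0.045 in the vehicle contrast. CISH, a target of STAT5, had 0.71 ± 0.12 and 1.12 ± 0.13. Without IFNg replicate 1 this contrast had 438 falls, and without IFNg replicate 2 it had 657 rises and 402 falls. The vehicle groups also differed from each other: 69 genes (0.437%) were called between DMSO and PBS, and 23 of these were among the genes called with IFNg.

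The motifs shown in the printed promoters were counted over all genes with a RefSeq window, 11183 of the 15775 tested. In the 250 bases upstream, 2.63% of these genes held the ISRE-type motif and 5.65% the GAS-type motif TTCNNNGAA. Among the rises over 2-fold with a window (93 genes) the shares were 23.7 and 12.9%. They were 15.7 and 11.1% for rises of 1.5 to 2-fold, 7.43 and 8.57% for rises of 1.2 to 1.5-fold, and 6.04 and 5.14% for smaller rises. The genes called lower had 2.01 and 3.69%, beside 2.03 and 5.55% for genes not called. Both shares were lower in each smaller size class of the rises, the ISRE-type share over the wider range. Outside the classic lists the 64 rises over 2-fold with a window had 15.6 and 9.38%. These shares are a description of the windows, and motif matches farther from the start were not counted.

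**Figure D5:**
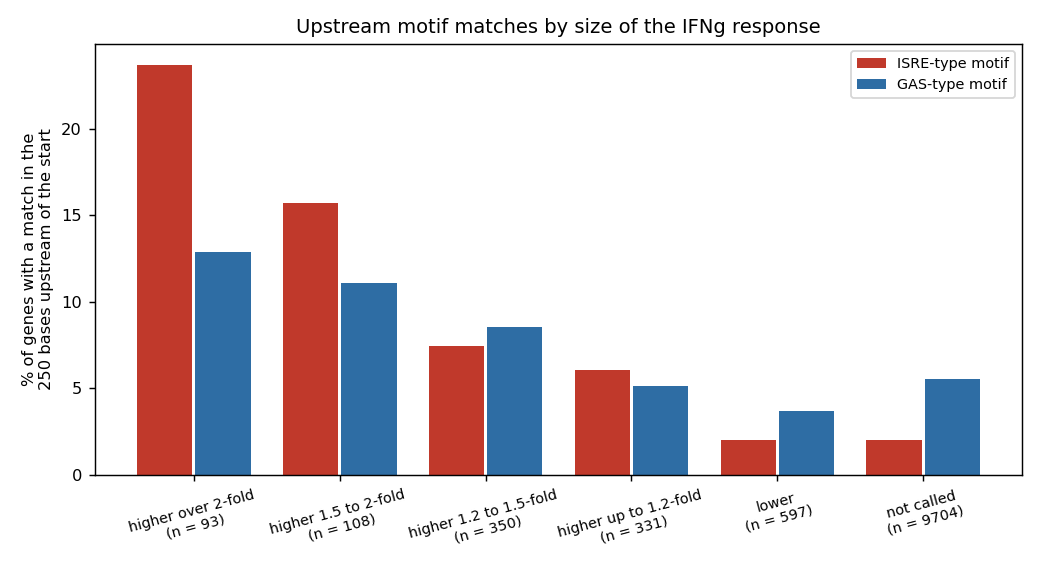
Share of genes with an ISRE-type match (red) or a GAS-type match (blue) on either strand in the 250 bases upstream of the start (vertical axis, %), for genes called higher by size of the rise, genes called lower and genes not called, with the number of genes under each bar pair. The ISRE-type bars run from 23.7% for rises over 2-fold to 2.03% for genes not called.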

How the data were processed

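Polyadenylated RNA was made into strand-marked libraries, per the labels' protocols. The deposited files hold expected counts, which are estimated per gene without scaling, and TPM values, per the file headers. STAR, RSEM and hg38 are named in the submitters' processing notes, without settings. Expected counts were rounded. Of 59526 identifiers, 791 without a gene held 0 counts and were left out, and 58207 of the 58735 genes matched GENCODE 44. TPM was used to compare levels between genes.

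Genes were tested with edgeR 4.0.16 (R 4.3.3): filterByExpr, TMM, and a robust quasi-likelihood fit over 15 panel libraries in 8 groups (pretreatment experiment: 24 libraries in 12 groups), with p adjusted over all tested genes by Benjamini and Hochberg. The method was tested on simulated data, where the share of false calls was above the nominal one. Fold changes are log2 ± SE. Counting intervals (95%) cover counting error only.

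Named genes are CXCL9, GBP4 and IRF1, the 20 largest rises and falls at 5 CPM or more with separate groups and outside the classic lists, up to 6 members per list, the 6 most abundant called genes and 6 lncRNAs each way. The members and lists were chosen with earlier results of these data known, and lists share members. Alternatives were DESeq2 1.42.0, DESeq2 size factors, no filter, each vehicle alone, fits of the compared groups alone, a minimum fold of 1.2, an offset for GC content, a replicate block and each library left out. Some genes that these rules name are not reported here.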

Additional observations from a re-analysis of the deposited data

How the results depend on the processing

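Of 248 named genes called in the main comparison, 124 kept their call under all 15 alternatives, 124 lost it under at least 1 and 0 changed direction. Of 78 counts of list members, 28 stayed within 1.5 times under all alternatives. With a minimum fold of 1.2 (edgeR glmTreat) the main comparison had 336 rises and 69 falls, 8 of them over 2-fold, and with DESeq2 it had 403 falls, 6 of them over 2-fold. When other groups were left out of the fit, the pretreatment contrast had 234 rises and 115 falls at 6 h and 100 and 28 at 1 h, where no filter gave 19 falls. Against TNF, LPS and IL2, DESeq2 gave 528 falls. With 1 library left out, the main comparison had 718 to 1226 rises and 342 to 798 falls, and 107 to 144 and 17 to 31 over 2-fold. The pretreatment contrast had 339 to 473 rises and 209 to 519 falls at 6 h, and 43 to 52 and 4 to 7 at 1 h. The contrast with the other stimuli had 657 to 1067 and 402 to 771. The causes were not tested, apart from the smaller number of samples and genes that some alternatives have by construction. With the replicate block the main comparison had 1186 rises and 804 falls. Replicate numbers share no deviation (correlations of -0.0245 to 0.052), so the block is no paired test. The alternatives with an offset for GC content were chosen after seeing the data. Depth of 14.2 to 22.9 M counts limits genes with few counts, and single libraries also decided calls of genes with many, such as FLNA.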
